A study of Rattus norvegicus with 9 samples.

Results

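The genes described here encode the ligands, receptors and latency proteins of transforming growth factor beta (TGF-β), together with the activin subunit Inhba and the protease Bmp1. They were chosen by name, as the probe sets that the array's annotation assigns to 1 of 10 genes and to no other. That gave 14 of the 31042 probe sets tested, for 9 of the 10 genes (Tgfb1, Tgfb2, Tgfb3, Inhba, Tgfbr1, Tgfbr3, Ltbp1, Ltbp2 and Bmp1) among 14217 genes in all. No probe set used here names the type II receptor Tgfbr2, which is not analysed here. Of the 9 genes, 5 had 2 probe sets each and 4 had 1.

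RNA of whole bone was measured on 9 arrays, 4 from the skull (calvaria 1 to 4, the bone that roofs the brain) and 5 from the limb (ulna 1 to 5, a forearm bone). The animals were male CD rats weighing 110 g, untreated at both sites, so the only labelled difference was the skeletal site. By the study's methods soft tissue, epiphyses and sutures had been taken off the bones, and RNA came from groups of several rats, so each replicate pools animals. The methods read as if both sites came from the same groups of rats, but no label ties a numbered array to a group, so the arrays were compared unpaired. The comparison asks whether bone of different origin and loading differs at rest in its expression of these genes. Signals below are array intensities scaled to a common median, with errors as SD between arrays, and the median signal over all probe sets and arrays was 33.8.

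TGF-β is secreted as an inactive dimer that stays bound to its own propeptide, and latent TGF-β binding proteins tether this complex to the matrix. Once released, the ligand brings together a type II and a type I receptor kinase, and the type I receptor phosphorylates Smad2 and Smad3. Bone matrix is a large store of latent TGF-β, which osteoclasts release during resorption and which acts on osteoblast precursors. Bmp1, despite its name, is a metalloprotease: it removes the C-terminal propeptide of fibrillar procollagens and also cleaves latent TGF-β binding protein 1.

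Bmp1 and the type I receptor Tgfbr1 were higher in the skull, and Inhba was higher in the limb. The ligands Tgfb1, Tgfb2 and Tgfb3, the co-receptor Tgfbr3 and the binding proteins Ltbp1 and Ltbp2 did not pass the test. A call needed a limma p below 0.05 after Benjamini-Hochberg adjustment over all probe sets, together with a 2-fold difference or more, that is, 1 on the log2 scale. By that rule 4 of the 14 probe sets (28.6%) were called, against 6.24% of all probe sets. Of these, 3 were higher in the skull, against 2.89% of all probe sets in that direction, and 1 was lower, against 3.36%. The same 4 were the only ones of the 14 past the adjusted p threshold when fold was ignored. For 5 of the 14 probe sets, all arrays of one site lay above all of the other, against 21.3% of all probe sets. The median log2 difference, skull minus limb, was 0.46 over the 14 probe sets and -0.01 over all probe sets.

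**Figure D1:**
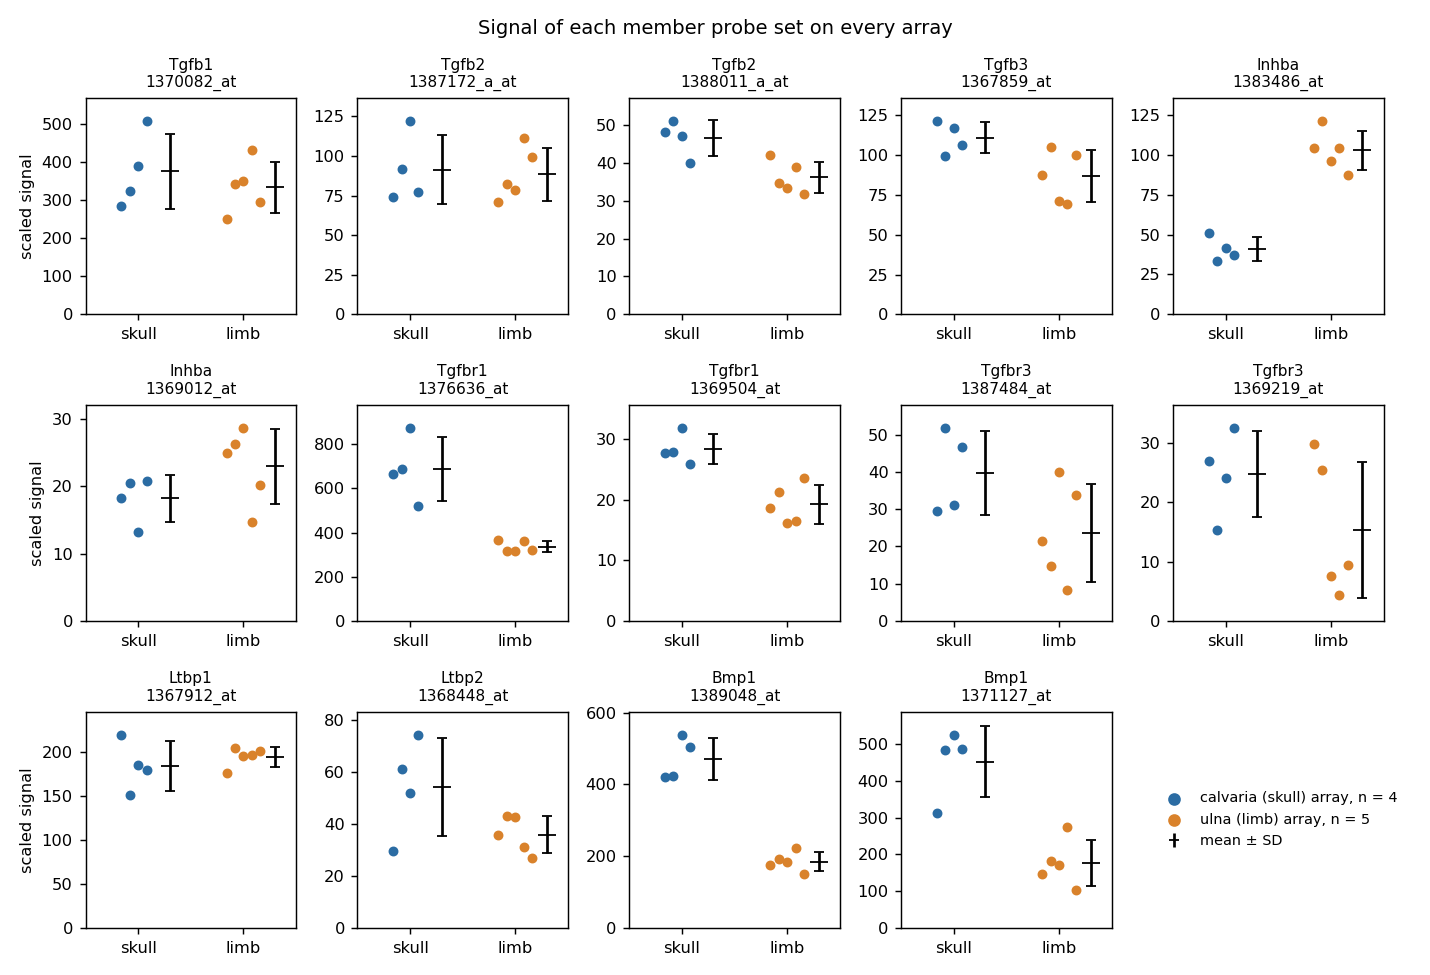
Scaled signal (y axis, linear array units from 0) of each of the 14 probe sets on each of the 4 skull (blue) and 5 limb (orange) arrays, with the mean ± SD beside the points. Both Bmp1 probe sets and both Tgfbr1 probe sets lay above every limb array on all skull arrays, and Inhba 1383486_at lay below, while the sites overlapped for the other 9 probe sets.

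Promoter sequence is shown for Tgfbr1 and Inhba, the called genes held in the promoter table, since they were called in opposite directions and had the highest and the lowest share of G and C among the 9 promoters found. It comes from RefSeq (GRCr8), whose table held 9 of the 10 genes, Tgfbr2 among them, and not Bmp1. The first stretch holds the 200 bases upstream of the annotated Tgfbr1 gene (chr5:66449148-66449347, plus strand), and the second holds 30 bases of the Inhba promoter (chr17:53804531-53804560, minus strand). The capitals mark GGGCGG, read on either strand, in Tgfbr1 and TATAAA in Inhba.
Tgfbr1: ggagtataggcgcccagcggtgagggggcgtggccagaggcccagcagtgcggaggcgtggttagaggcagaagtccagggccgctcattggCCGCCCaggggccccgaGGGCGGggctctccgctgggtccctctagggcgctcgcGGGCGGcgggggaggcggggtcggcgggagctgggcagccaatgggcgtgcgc
Inhba: taagtactacagTATAAAacttcacagtgc
Over the 250 bases before the start site in the table, the Tgfbr1 promoter was 75.6% G and C with 27 CpG, more CpG than 92.3% of the 33469 promoters in the table. The Inhba promoter was 43.6% G and C with 2 CpG, and the medians over all promoters were 51.2% and 5. GGGCGG occurred 3 times in Tgfbr1, 158, 141 and 103 bases before the start, and on either strand in 30.5% of all promoters. TATAAA occurred once in Inhba, 40 bases before the start, and in 12.9% of all promoters. The start in the table lies 6434 bases inside the outer edge of the annotated Inhba gene and 50 bases inside that of Tgfbr1. The Smad-type letters CAGACA (17.2% of promoters), the Runx-type letters TGTGGT (14.5%) and the AP-1-type letters TGACTCA (4.05%) were searched on both strands and were not found in these 250 bases of any of the 9 genes. A match or its absence is a description of the letters only.

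Among the ligands, Tgfb1 (chr1:90324312-90340627 in GRCr8), the most abundant form stored in bone matrix, gave signals of 283, 322, 388 and 507 on calvaria 1 to 4. On ulna 1 to 5 it gave 250, 342, 349, 430 and 294. The sites overlapped almost entirely, with means of 375 ± 97.7 (n = 4) and 333 ± 67.4 (n = 5). The log2 difference was 0.16 ± 0.20 (SE), with a 95% interval from -0.28 to 0.60 (limma adjusted p = 0.640). The interval lies within a 2-fold change in either direction, so a difference as large as that of Bmp1 was not seen for Tgfb1 at this precision.

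Tgfb2 (chr13:100691540-100793227), a ligand that depends on Tgfbr3 for efficient receptor binding, was read by 2 probe sets. On 1387172_a_at the skull arrays gave 73.9, 91.8, 122 and 77.4 and the limb arrays 70.7, 82.5, 78.3, 111 and 99.3. These groups overlapped, and the log2 difference of 0.04 ± 0.18 (limma adjusted p = 0.929) changed sign when single arrays were left out. On 1388011_a_at the skull arrays gave 48.1, 51.1, 47.2 and 40.0, and the limb arrays 42.0, 34.8, 33.5, 38.9 and 31.8. Here only calvaria 4 fell below a limb array, and the log2 difference was 0.37 ± 0.13 (adjusted p = 0.0795). Tgfb3 (chr6:111435170-111457646), the third ligand, gave 121, 99.4, 117 and 107 in the skull against 87.5, 105, 71.3, 69.2 and 100 in the limb. Its log2 difference was also 0.37 (± 0.14, adjusted p = 0.0985), and 2 limb arrays reached into the skull range. Both 95% intervals, 0.07 to 0.66 and 0.05 to 0.69, lay above 0 and below a 2-fold change, without passing the threshold after adjustment over all probe sets.

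Inhba (chr17:53787159-53810942) encodes the βA subunit, which forms activin A as a dimer and inhibin A when paired with the α subunit. On 1383486_at the signals were 50.8, 33.6, 41.6 and 37.0 on calvaria 1 to 4, and 105, 121, 96.4, 104 and 87.7 on ulna 1 to 5. Every limb array lay above every skull array, with means of 40.8 ± 7.46 in the skull and 103 ± 12.4 in the limb, a limb to skull ratio of 2.52. The log2 difference was -1.34 ± 0.14 (95% interval -1.66 to -1.03, limma adjusted p = 0.000203). The second probe set, 1369012_at, gave 13.2 to 20.8 in the skull and 14.6 to 28.6 in the limb. It pointed the same way without passing the test (-0.32 ± 0.26, adjusted p = 0.457), so the difference rests on 1 of the 2 probe sets.

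The type I receptor Tgfbr1 (chr5:66449348-66506371) gave signals of 665, 688, 872 and 518 on calvaria 1 to 4 with 1376636_at. The limb arrays gave 367, 318, 315, 363 and 320. No limb array reached the lowest skull array. The skull to limb ratio (S:L) was 2.04, from means of 686 ± 145 and 337 ± 25.9, and the log2 difference was 1.01 ± 0.13 (95% interval 0.70 to 1.31, limma adjusted p = 0.000735). This value stands just past the 2-fold threshold: without calvaria 3, the highest skull array, it was 0.88 (adjusted p = 0.0011), and the call also ended without calvaria 2 (0.996), ulna 2 (0.99), ulna 3 (0.98) or ulna 5 (0.99), although the adjusted p stayed below 0.05 in each case. With the replicate number as a block, which drops ulna 5, it was 0.99 (adjusted p = 0.0231) and was not called. On the dimmer probe set 1369504_at the skull arrays gave 27.8, 27.9, 31.8 and 25.9 and the limb arrays 18.7, 21.2, 16.2, 16.5 and 23.6. The sites did not overlap on it either. Its log2 difference of 0.57 ± 0.18 was under 2-fold and the adjusted p was 0.0502, so it passed neither threshold.

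Tgfbr3 (chr14:2634294-2810269) encodes betaglycan, a co-receptor that presents TGF-β to the signalling receptors. Both of its probe sets varied widely within the limb. On 1387484_at the skull arrays gave 29.4, 51.8, 31.1 and 46.7, and the limb arrays 21.5, 14.8, 40.0, 8.33 and 33.7. On 1369219_at the range was 15.3 to 32.5 in the skull and 4.47 to 29.8 in the limb. The sites overlapped on both. The log2 differences were 0.92 ± 0.46 (adjusted p = 0.211) and 0.99 ± 0.58 (adjusted p = 0.285). Limb signals were at or below 8.34, the highest signal of control probe sets for a bacterial transcript, on 1 array for the first and 2 arrays for the second. The 95% intervals, -0.12 to 1.95 and -0.31 to 2.30, run from no difference to more than 2-fold, so Tgfbr3 is unresolved.

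Of the latency proteins, Ltbp1 (chr6:25781625-26177346), which binds latent TGF-β covalently and anchors it in the matrix, was close to equal at both sites. It gave 220, 152, 186 and 180 in the skull and 176, 205, 195, 197 and 201 in the limb. The skull range enclosed the limb range, and the log2 difference was -0.09 ± 0.10 (95% interval -0.32 to 0.13, adjusted p = 0.594). Ltbp2 (chr6:110161029-110261586), a fibrillin-binding relative that does not bind latent TGF-β, gave 29.6, 61.3, 52.1 and 74.4 in the skull and 35.9, 43.1, 42.7, 31.0 and 27.0 in the limb. Calvaria 1 lay within the limb range and the other skull arrays above it. The log2 difference of 0.54 ± 0.27 did not pass the test (adjusted p = 0.213).

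Bmp1 (chr15:51961310-52005597), the procollagen C-proteinase, showed the largest difference toward the skull among the 9 genes, on both of its probe sets. On 1389048_at calvaria 1 to 4 gave 422, 423, 539 and 503, and ulna 1 to 5 gave 176, 193, 184, 223 and 149. The lowest skull array was well above the highest limb array. The S:L ratio was 2.55, from means of 472 ± 58.7 and 185 ± 26.8, with a log2 difference of 1.35 ± 0.12 (95% interval 1.08 to 1.63, limma adjusted p = 0.000101). On 1371127_at the skull arrays gave 312, 484, 525 and 487, and the limb arrays 146, 183, 171, 273 and 104. The sites again did not overlap, although calvaria 1 lay only a little above ulna 4. The log2 difference there was 1.41 ± 0.27 (adjusted p = 0.00487), an S:L ratio of 2.58. These were the only 2 probe sets of 1 gene among the 5 pairs that were both called.

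**Figure D2:**
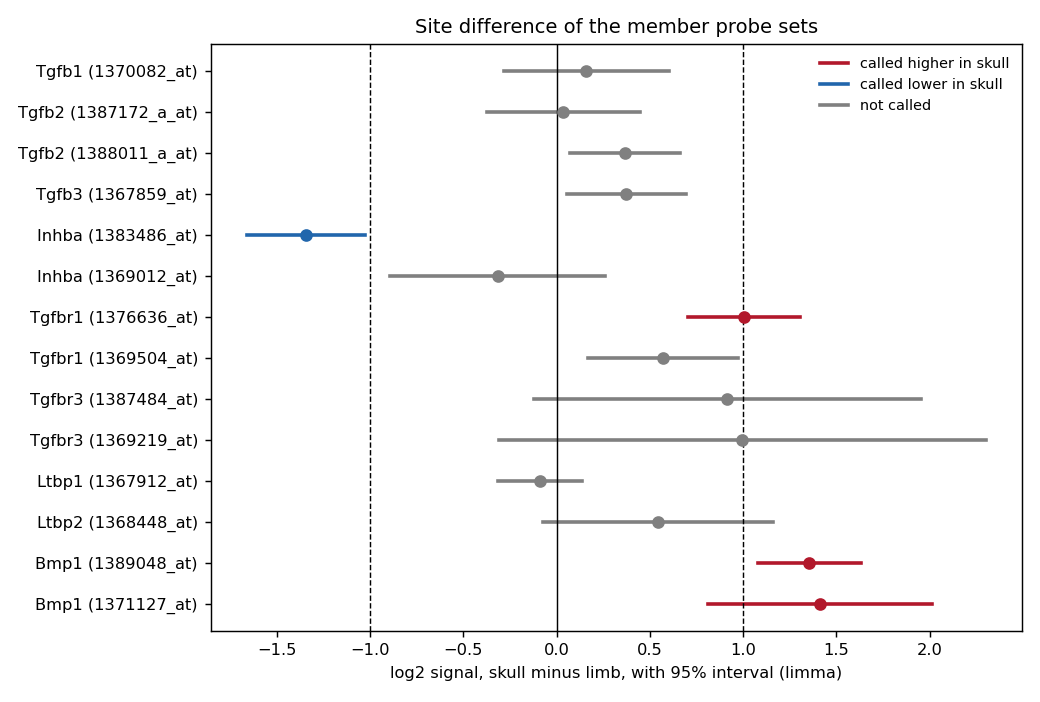
Log2 difference, skull minus limb (x axis), of each probe set with its 95% interval from limma, and dashed lines at 2-fold. Both Bmp1 probe sets and Tgfbr1 1376636_at (1.01) lie at or past 2-fold toward the skull, Inhba 1383486_at (-1.34) lies past it toward the limb, and the intervals of Tgfbr3 are the widest.

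Across replicate arrays, the coefficient of variation of the 14 probe sets ran from 8.77% to 34.7% in the skull (median 20.2%) and from 5.75% to 74.3% in the limb (median 18.8%). The largest limb values belonged to Tgfbr3.

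A field in the labels names the calvaria for ulna 1 to 4, whereas their titles and source names give the ulna, which was used here. The homeobox gene Shox2, which is expressed in the developing limb, gave 109 to 148 in the limb, ulna 1 to 4 included, and 13.7 to 24.8 in the skull. Shox2 is also on the study's own lists from these samples. Ulna 5, whose labels hold no conflict, gave 149 for Bmp1 1389048_at, 320 for Tgfbr1 1376636_at and 87.7 for Inhba 1383486_at, each outside the range of the skull arrays. With ulna 5 as the only limb array, assumed to vary as the skull arrays do, the differences were 1.65 for Bmp1 1389048_at (adjusted p = 0.0324), 2.09 for Bmp1 1371127_at (0.0584), 1.07 for Tgfbr1 (0.145) and -1.12 for Inhba (0.121). Bmp1 1389048_at alone of the 4 stayed called.

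**Figure D3:**
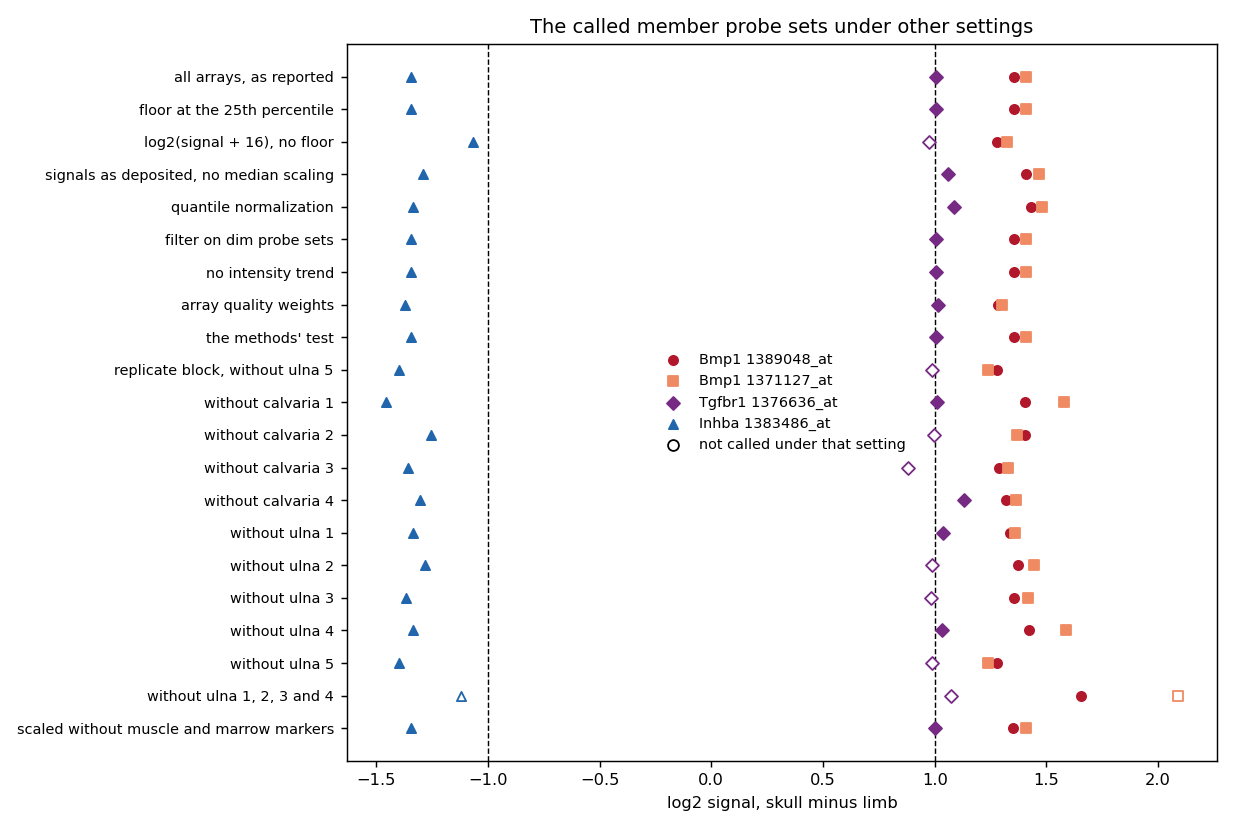
Log2 difference, skull minus limb (x axis), of the 4 called probe sets under each alternative processing or set of arrays (y axis), with open symbols where the call was lost and dashed lines at 2-fold. Tgfbr1 1376636_at stays between 0.88 and 1.13 and crosses the 2-fold line in either direction, whereas Bmp1 1389048_at stays between 1.28 and 1.65.

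Other genes of the pathway were read from 6 lists with 81 measured genes of 95 listed, each gene by its brightest probe set and with p adjusted over 14217 genes. Of these, 6 (7.41%) were called higher in the skull, against 3.59% of all genes, and 2 (2.47%) were called lower, against 4.47%. By adjusted p alone, without the fold rule, 32 (39.5%) were higher in the skull and 5 (6.17%) lower, against 14.2% and 18.1% of all genes. The median log2 difference was 0.37 over the 81 genes and -0.02 over all genes. Differences of less than 2-fold toward the skull were thus the most frequent result past the adjusted p threshold among these genes.

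In the list of activin subunits, receptors and co-receptors none of 8 genes was called, and 1 passed the adjusted p. That was also the brightest, endoglin (Eng), an endothelial co-receptor for TGF-β, with 242 ± 21.4 in the skull against 122 ± 9.30 in the limb. Its log2 difference of 0.99 ± 0.08 was just under 2-fold (limma adjusted p = 4.00e-05). Tgfbrap1, a receptor-associated protein, differed by -0.08 ± 0.19.

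Of the 16 genes of latency and activation, 2 were called, both higher in the skull, and 7 passed the adjusted p in that direction. Itgav, the αv integrin subunit that pairs with several β subunits to pull on latent TGF-β, gave 647 ± 166 against 236 ± 44.1 (1.45 ± 0.19), and its other 2 probe sets gave 1.84 and 1.62, all called. Emilin1, a matrix protein that binds the TGF-β1 precursor, gave 709 ± 97.4 against 319 ± 31.4 (1.15 ± 0.11). Genes named here and below as past the adjusted p alone were chosen after their values were seen. Here they were the latency protein Ltbp3 (0.68 ± 0.11), fibrillin-1 (Fbn1, 0.72 ± 0.14), to which latent complexes attach, the integrin subunit Itgb5 (0.41 ± 0.10) and the metalloproteases Mmp2 (0.66 ± 0.10) and Mmp14 (0.59 ± 0.11).

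Among Smads and their regulators, 1 of 17 was called. Usp15, a deubiquitinase that acts on the receptor complex, was lower in the skull (139 ± 24.5 against 330 ± 59.5, -1.24 ± 0.15). By adjusted p alone 6 were higher and 3 lower, Usp15 included. Among those higher were the signal transducer Smad3 (0.79 ± 0.10), the inhibitory Smad7 (0.59 ± 0.16), and Pmepa1 (0.82 ± 0.12) and Skil (0.44 ± 0.11), which restrain the pathway and are induced by it. The others past it toward the limb were Trim33 (-0.62 ± 0.08) and the kinase Map3k7 (-0.29 ± 0.08).

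Of 12 extracellular binders, 1 was called in each direction, both small leucine-rich proteoglycans, while by adjusted p alone 7 were higher in the skull and 1 lower. Biglycan (Bgn), abundant in bone matrix, gave 1557 ± 159 in the skull and 661 ± 92.6 in the limb (1.24 ± 0.11). Asporin (Aspn), which binds TGF-β and collagen, gave 270 ± 144 and 722 ± 159 (-1.51 ± 0.29), and its second probe set (-1.85) was called too. Aspn varied most in the skull, where calvaria 1 gave 485 and calvaria 2 to 4 gave 188 to 212.

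Of 23 genes known to respond to TGF-β, 2 were called, both higher in the skull, and by adjusted p alone 7 were higher and 1 lower. Timp1, an inhibitor of matrix metalloproteases, gave 1946 ± 334 against 637 ± 73.6 (1.60 ± 0.12), and the study itself lists it among genes differing on these samples. Snai1, a transcriptional repressor, gave 149 ± 25.8 against 71.1 ± 7.60 (1.06 ± 0.13). Without calvaria 3 the Snai1 difference was 0.97, under 2-fold. The cross-linking enzyme Lox (0.81 ± 0.11) and the transglutaminase Tgm2 (0.77 ± 0.09) passed the adjusted p alone toward the skull. Periostin (Postn), another matrix protein, passed it toward the limb (-0.57 ± 0.16). On the same list Ccn2 (0.37 ± 0.13), Ccn1 (0.35 ± 0.22), Tsc22d1 (0.07 ± 0.08) and Klf10 (-0.21 ± 0.12) did not pass it.

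The last list holds partners and substrates of Bmp1 together with other proteases, Mep1a among those measured. Of its genes 9 were measured, 2 were called and 6 passed the adjusted p, all toward the skull. Pcolce, which enhances procollagen cleavage by Bmp1, gave 2748 ± 364 against 1159 ± 107 (1.24 ± 0.11, adjusted p = 5.71e-05), and Bgn, a substrate, is counted here as well as above. Other substrates past the adjusted p alone were Lox, Col5a1 (0.80 ± 0.09), chordin (Chrd, 0.79 ± 0.21) and Dmp1 (0.50 ± 0.12). The substrates Col1a1 (0.19 ± 0.16) and Col1a2 (0.12 ± 0.14) did not pass the test, but their mean signals of 6781 to 8006 lay near the top of the scale, where the brightest scaled signal of an array was 5625 to 8739.

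**Figure D4:**
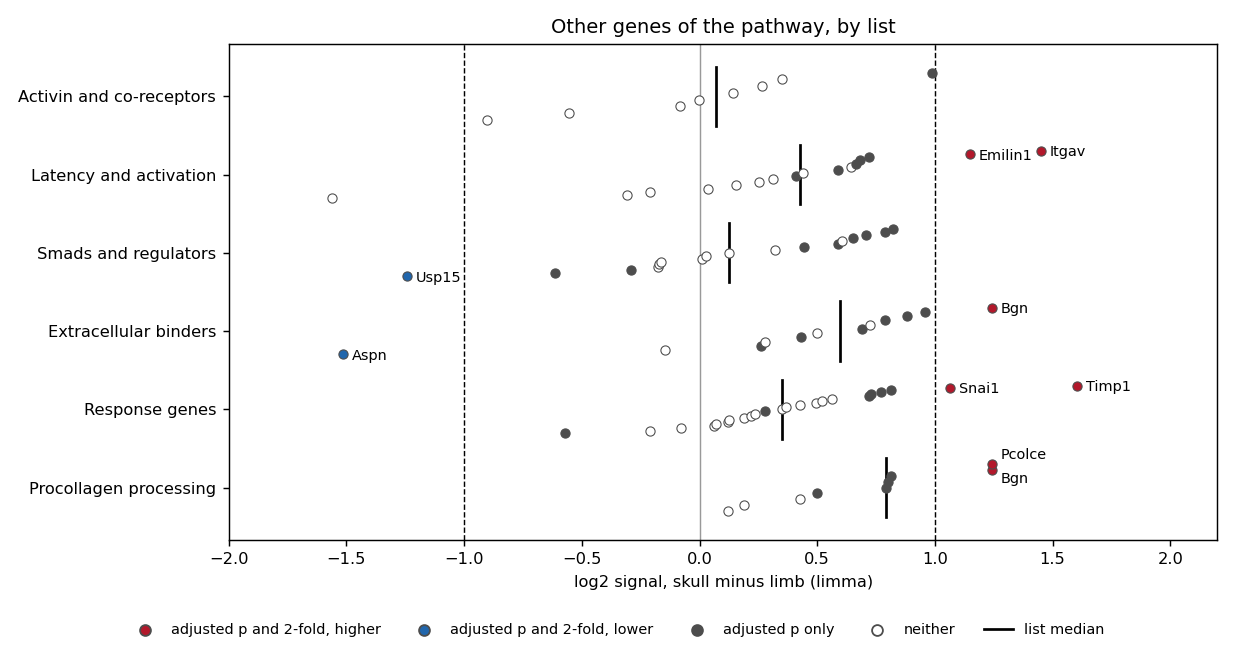
Log2 difference, skull minus limb (x axis), of each measured gene in the 6 lists (y axis), coloured by call, with a bar at each list's median and dashed lines at 2-fold. List medians lie between 0.07 (activin and co-receptors) and 0.79 (procollagen processing), and Usp15 and Aspn are the 2 genes called toward the limb.

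Markers of several cell types also differed between the 2 sites on the same arrays. In whole bone, fewer cells of a type and less RNA per cell cannot be told apart. All 12 skeletal muscle markers were lower in the skull (summed signal 67.1 to 118.8, against 8372 to 20870 in the limb), 4 of them at or below the bacterial control level on every skull array. Of the marrow lists, 7 of 8 erythroid markers (12221 to 12702 against 16984 to 22413), 6 of 7 megakaryocyte and platelet markers (1443 to 2130 against 6098 to 6887) and 3 of 5 neutrophil markers (8845 to 10969 against 14274 to 18827) were also lower in the skull. All 6 osteoclast markers were higher in the skull (9142 to 13253 against 3268 to 4113). Higher there too were 3 of 7 osteoblast markers (24368 to 31881 against 17104 to 23440). So were 4 of 8 tendon and fibroblast markers, with 1 other lower (5504 to 6448 against 3548 to 4521). Of 7 mast cell markers 4 were called higher, with 1 other lower by adjusted p alone (634 to 817 against 303 to 379). Several osteoclast and osteoblast markers are also on the study's own lists from these samples. Some markers, among them Col1a1, Dcn, Dmp1, Acta2 and Tagln, are also on the pathway lists above, so the marker and pathway lists are not fully separate. Of 8 endothelial markers 1 was called in each direction, but 7 were higher in the skull by adjusted p alone (1689 to 1751 against 1292 to 1508). Of 9 macrophage markers 2 were called higher (8194 to 9883 against 6953 to 8638). Of 6 adipocyte markers 3 were called lower (1378 to 1864 against 1827 to 2536), as was 1 of 8 cartilage markers (136 to 157 against 191 to 304). Of 8 smooth muscle and pericyte markers 1 was called lower, and 3 were higher by adjusted p alone (1627 to 1794 against 1015 to 1428). None of 7 osteocyte markers was called, and 2 were higher by adjusted p alone (6058 to 8767 against 4651 to 5469). All 10 position genes used to check the sites were called, 4 higher and 6 lower in the skull. Most of them are also on the study's own lists from these samples, so their calls are not an independent check. Bmp1, Tgfbr1 and Inhba differed between the sites on the same arrays as these lists, which went in both directions. The part of cell composition in their differences was not tested. On the RNA quality controls the ranges of the sites overlapped, but some skull arrays lay above all limb arrays. For Gapdh the log2 ratio of 3′ over 5′ signal was 0.277 to 0.594 in the skull and 0.209 to 0.372 in the limb. That of beta-actin was 0.747 to 1.04 and 0.571 to 0.858. Calvaria 2 to 4 lay above every limb array on Gapdh, and calvaria 3 (1.04) and calvaria 4 (1.02) did so on beta-actin. The part of RNA quality in the site differences was not tested.

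The genes whose pattern over the 9 arrays was most like each called gene were found by the root mean square distance of their log2 signals, centred per gene, among 9480 genes at or above the median signal. For Bmp1 they were the semaphorin receptor Plxnb1 (distance 0.0846), the phospholipid transfer protein Pltp (0.0864) and the creatine transporter Slc6a8 (0.0955). For Tgfbr1 they were the lectin receptor Clec4a3 (0.0644), Etl4 (0.0849) and the RNA-binding protein Khdrbs3 (0.0862), each with a difference just under 2-fold (0.92 to 0.94). For Inhba they were the transcription factor Klf5 (0.110), the adaptor protein Fyb1 (0.131) and the AMP deaminase Ampd3 (0.139). These distances are a description over 9 arrays that share a division by site.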

How the data were processed

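The authors deposited linear MAS5 intensities of the Affymetrix Rat Genome 230 2.0 GeneChip, with 1 value for each probe set on each array, after one-cycle labelling. Software for the scan and the genome build of the array were not given in the sources used here. No column was left unused. Of 31099 probe sets 57 were controls. Each array was divided by its median and rescaled, signals were floored at the 10th percentile (2.51), and log2 values were compared, skull minus limb, by limma 3.58.1 under R 4.3.3 with an intensity trend. Folds near the floor understate the difference. The code was tested on simulated data. A single symbol named 20826 probe sets, of which 20758 matched RefSeq by gene identifier (GRCr8, the source of all coordinates). Where the probe sets lie within their genes was not analysed here. The number of arrays limits the precision.

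Named were all 10 members with every probe set, the called genes of each pathway list or its 2 brightest, and the 3 nearest genes by pattern for each called member. Other pathway genes in the text, among them those past the adjusted p alone, fall outside this rule and were chosen after their values were seen. Members and lists were chosen with earlier results of these data known. A planned comparison of the ligand proteins was not made. Alternatives covered the floor, pseudocount, scaling, a filter, the test, array weights, replicate block and single arrays left out.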

Additional observations from a re-analysis of the deposited data

Results flagged for a closer look

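Dixon's ratio at 95% flagged no single array for any of the 14 probe sets, in 28 groups. With 4 or 5 arrays in a group it can miss an array that stands apart. On Bmp1 1371127_at calvaria 1 gave 312 against 484 to 525 on the other skull arrays and was not flagged.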

How the results depend on the processing

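With 16 added to each signal before log2 and no floor, 437 probe sets were called higher and 595 lower in the skull, against 896 and 1042. Without ulna 1 to 4, a choice made after seeing the data, there were 361 and 416, and of the 14 probe sets of the TGF-β genes 1 was called higher and 0 lower. Bmp1 1389048_at kept its call in all 20 alternatives. Inhba 1383486_at and Bmp1 1371127_at lost theirs only without ulna 1 to 4. Tgfbr1 1376636_at lost it in 8 of 20, with the pseudocount (0.97, limma adjusted p = 3.50e-05) and the block below among them. Of the pathway genes, Snai1 lost its call with the pseudocount (0.92), without calvaria 3 (0.97) and without ulna 1 to 4 (1.28, adjusted p = 0.0631), and Itgav (1.89, adjusted p = 0.0513) and Aspn (-1.06, adjusted p = 0.366) lost theirs only without ulna 1 to 4. Tgfb2 1387172_a_at, near 0 throughout, changed sign without calvaria 3 (-0.11), ulna 1 (-0.04), ulna 3 (-0.0026) and ulna 1 to 4 (-0.15), and reached 0.13 without calvaria 1. The cause of these changes was not tested.

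Leaving out 1 array at a time gave 766 to 927 probe sets higher and 946 to 1118 lower, 2 to 3 of the 14 higher and 1 to 1 lower, and 5 to 7 pathway genes higher and 2 to 3 lower. The methods' test gave 791 and 927 probe sets after Benjamini-Hochberg and 2-fold. With the replicate number as a block, which leaves out ulna 5, 733 and 838 probe sets were called, and 2 and 1 of the 14, with Tgfbr1 1376636_at at 0.99 (adjusted p = 0.0231). Deviations of same-numbered arrays correlated at -0.0021 to 0.16 and those of other pairs at -0.17 to 0.081. Of the skull arrays 2 of 4 correlated best with their own number. Neither these values nor the labels show that a number marks 1 group of rats at both sites, and they do not show that it does not. A filter on dim probe sets removed 3 of the 14. Signals near the control level limit Tgfbr3.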
